A study of Mus musculus with 6 samples.

Results

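The Wnt ligands Wnt5a, Wnt11, Wnt10a and Wnt10b, the receptors Ror1 and Ror2, and the R-spondins Rspo1, Rspo2 and Rspo3 with their receptor Lgr4 were chosen by gene symbol, 10 of the 17213 genes in a count table of sorted mouse dental follicle cells, and all 10 were measured in every library. Wnt11 had lower and Ror2 higher values in every library labelled KO for Pth1r than in any labelled Het, and neither difference passed the test over all genes. Wnt11 averaged 96.0 ± 12.6 CPM in KO-labelled libraries and 148 ± 5.85 CPM in Het-labelled ones (SD, n = 3 each). Ror2 averaged 114 ± 20.1 CPM in KO-labelled libraries and 74.9 ± 10.4 CPM in Het-labelled ones (SD, n = 3 each). The other members of the set, 3 further Wnt ligands, the receptor Ror1, 3 R-spondins and the R-spondin receptor Lgr4, had values that overlapped between the groups. CPM here are counts relative to library size with TMM scaling, which corrects for differences in RNA composition.

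The libraries came from mandibular molars of mice at postnatal day 8. In 3 samples labelled KO the genotype was Pth1r(-/-), from a conditional allele, and in 3 samples labelled Het it was Pth1r(+/-), so both groups had lost at least 1 copy of the receptor gene and no group with both copies intact was used here. In both groups the cells were sorted for tdTomato, a red fluorescent reporter that marked cells producing PTHrP, the ligand of this receptor. The Cre line that drives the deletion is not named in the labels, and the tamoxifen pulse that starts it is given as day 3 in the series text and as day 8 in the sample descriptions. The comparison asks how these cells differ when the receptor is lost.

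Wnt proteins are secreted, lipid-modified ligands that need the carrier Wls to leave the cell. Wnt10a and Wnt10b signal mainly through Frizzled and Lrp5 or Lrp6 to stabilise beta-catenin, while Wnt5a and Wnt11 act mostly without beta-catenin, Wnt5a through the receptor tyrosine kinases Ror1 and Ror2 and the planar cell polarity pathway. R-spondins are secreted proteins that bind Lgr4, Lgr5 or Lgr6 and keep the ubiquitin ligases Znrf3 and Rnf43 from removing Frizzled receptors, so they raise the response of a cell to Wnt. In teeth, Wnt10a is needed for normal crown and root formation and is made by dental epithelium and by odontoblasts.

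The labels were first checked against the targeted gene. Pth1r (build mm10, as for all gene positions here, chromosome 9, 110722085 to 110747145, minus strand) was at 961, 608 and 472 CPM in libraries labelled KO, against 371, 286 and 346 CPM in the Het-labelled ones, so the targeted transcript went against the labels. In edgeR this gave a log2 fold change of 1.02 (SE 0.28, adjusted p = 0.740). In DESeq2 the adjusted p was 0.0564, and Pth1r passed as higher in 2 alternatives chosen after seeing the data, with the replicate block (0.00416) and with Het replicate 2 left out (0.0232), of 18 alternatives with adjusted p-values between 0.00416 and 0.9999. Gene-level counts cannot tell whether the deleted exons were read, and every direction below is that of the labels. The protein-coding gene Myl3 overlaps Pth1r on the opposite strand, and the strand setting of the counting is not known here. The libraries held 34019925 to 66147200 counts. Het replicate 2 stood apart on the first principal component of log2 CPM, which carried 40.6% of the variance. Since the labels do not tie each library to its own animal, the p-values cover the variation among these 6 samples, which can be technical.

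The start regions of the 2 genes whose groups did not overlap are shown first. They were taken from RefSeq on build GRCm38.p6, run 5′ to 3′ on the gene's own strand, and cover 250 bases before and 50 bases after the start of transcription. Of the 10 members, 6 were in the promoter table, with 7 entries, because Wnt11 has 2 start sites. The Wnt11 region printed is chr7:98834862-98835161 on the plus strand, and the Ror2 region is chr13:53286075-53286374 on the minus strand. Capitals mark matches, on either strand, to the letters searched: TGACG, the short form of the cAMP response element that CREB factors bind, CTTTGAT, the core bound by the TCF/LEF partners of beta-catenin, TGANTCA, the AP-1 element, and TGTGGT, the core bound by RUNX factors.
Wnt11: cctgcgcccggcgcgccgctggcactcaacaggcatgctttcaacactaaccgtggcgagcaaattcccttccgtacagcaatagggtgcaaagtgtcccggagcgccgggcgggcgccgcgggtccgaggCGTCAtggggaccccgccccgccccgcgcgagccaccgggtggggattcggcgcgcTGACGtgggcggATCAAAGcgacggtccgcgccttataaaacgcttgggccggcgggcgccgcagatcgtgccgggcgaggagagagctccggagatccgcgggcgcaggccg
Ror2: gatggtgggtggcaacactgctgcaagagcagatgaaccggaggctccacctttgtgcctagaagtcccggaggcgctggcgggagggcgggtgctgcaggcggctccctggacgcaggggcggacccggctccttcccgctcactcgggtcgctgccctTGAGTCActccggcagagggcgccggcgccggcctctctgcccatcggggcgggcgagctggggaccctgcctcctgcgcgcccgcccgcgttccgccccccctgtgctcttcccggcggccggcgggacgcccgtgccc
The Wnt11 region holds TGACG at 119 bases (on the opposite strand) and at 63 bases before the start, and the TCF/LEF letters, also on the opposite strand, at 51 bases before it. The second Wnt11 start region (98838595 to 98838894) also has 2 matches to TGACG. The Ror2 region has no TGACG and 1 AP-1 match, at 90 bases before the start. Ror1 and Wnt10b, whose groups overlapped, also hold TGACG on the opposite strand, at 217 and 6 bases before the start. Ror1 has a RUNX match at 96 bases before the start, and the Lgr4 and Rspo1 regions have no match. Of the 32851 promoters in the table, 20.8% hold TGACG, 3.73% the TCF/LEF letters, 7.81% the AP-1 letters and 16.8% the RUNX letters. The full element TGACGTCA, which contains the short form, occurs in 1.79% of promoters and in none of the 7 member entries. These matches describe letters only and were not tested for binding.

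Levels were compared between genes per transcript length, in the authors' FPKM, which are fragments scaled by transcript length and library size. Wnt10a and Wnt5a were the most abundant members, with means of 91.3 and 78.5 FPKM over all 6 libraries, and neither was above the other in more than 3 libraries. Wnt11 followed at 46.9 FPKM, below Wnt5a in 5 of 6 libraries. Rspo1 at 34.6 FPKM lay below Wnt11 in 5 libraries and above Ror2, at 27.1 FPKM, in 4. Ror2 exceeded Ror1, at 8.67 FPKM, in all 6 libraries, the only neighbouring step in this order without exception. Lgr4, Rspo3, Wnt10b and Rspo2 formed the low end, with means of 5.38, 3.69, 2.33 and 1.80 FPKM and ranges that overlapped. Among all 19 mouse Wnt ligands of the FPKM table, Wnt10a, Wnt5a, Wnt6 and Wnt11 held a mean of 24.7%, 22.1%, 16.6% and 13.1% of the summed Wnt FPKM. Wnt1, Wnt8a, Wnt9b and Wnt16 were listed at 0 in every library.

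**Figure D1:**
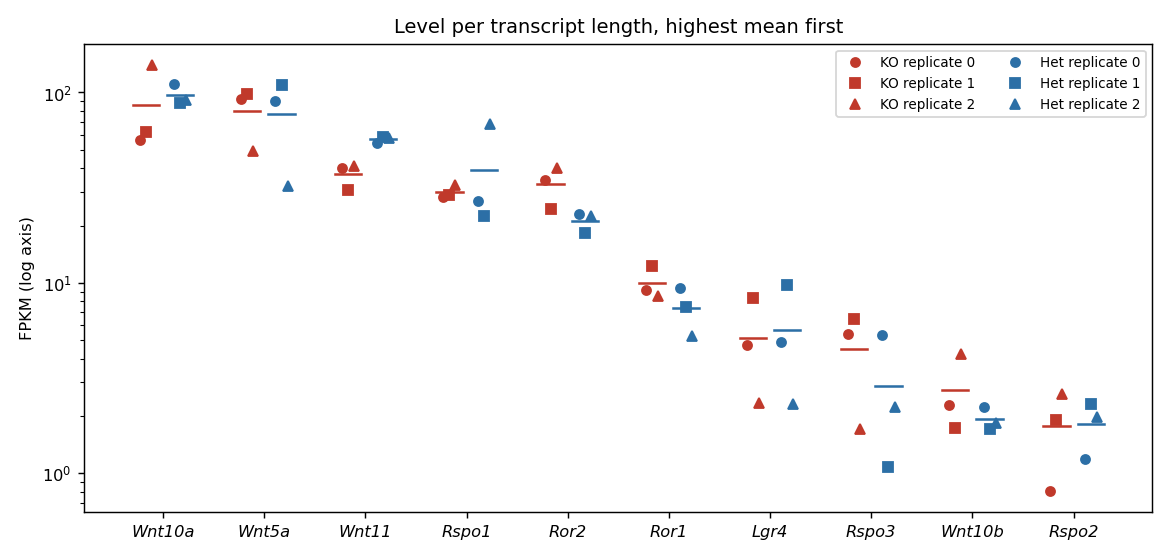
FPKM (log axis) of the 10 genes in each library, ordered by their mean over all 6 libraries; red symbols are libraries labelled KO, blue symbols libraries labelled Het, symbol shapes are replicate numbers and short lines are group means. Wnt10a and Wnt5a lead with means of 91.3 and 78.5 FPKM, and Rspo2 is lowest with a mean of 1.80 FPKM.

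The FPKM values differed between libraries in a way that followed the replicate number. The FPKM that 1 CPM of Wnt5a gave was 0.257, 0.273 and 0.167 in replicates 0, 1 and 2 labelled KO, and 0.256, 0.283 and 0.167 in Het-labelled ones. For Wnt10a it was 0.589, 0.614 and 0.978 in KO-labelled libraries and 0.605, 0.632 and 0.867 in Het-labelled ones. Replicates 2 of both groups gave less FPKM per CPM for Wnt5a and more for Wnt10a, and Wnt10a was above Wnt5a in these libraries and in Het replicate 0. Differences between the groups are therefore given in CPM, with each group's values in the order of replicates 0, 1 and 2.

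Of the Wnt ligands, Wnt5a (chromosome 14, 28504750 to 28527448, plus strand), the main ligand of the Ror receptors, was at 358, 361 and 294 CPM in libraries labelled KO replicates 0, 1 and 2, against 353, 387 and 193 CPM in the Het-labelled replicates. Het replicate 2 was lowest, the other 5 lay between 294 and 387 CPM, and the groups overlapped. Its log2 fold change was 0.12 (95% interval -0.49 to 0.73; edgeR adjusted p = 0.981), and without Het replicate 2 it was -0.13.

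Wnt11 (chromosome 7, 98835112 to 98855195, plus strand), a ligand of cell movements in development, was at 108, 82.8 and 97.5 CPM in KO-labelled libraries, against 143, 154 and 145 CPM in Het-labelled ones. Every library labelled KO was below every library labelled Het, and the Het-labelled values lay close together. The log2 fold change was -0.62 (SE 0.18, 95% interval -1.02 to -0.22), and the edgeR adjusted p was 0.855. In DESeq2 the adjusted p was 0.0927. With Het replicate 2 left out, an alternative chosen after seeing the data, Wnt11 passed in DESeq2 with an adjusted p of 0.0417, where 1.02% of genes did, and over all 18 alternatives its adjusted p ran between 0.0417 and 0.9999. The sums of pericyte and of endothelial markers did not overlap either, though most of their genes did singly. The 6 pericyte and smooth muscle markers, all detected, summed to 786, 710 and 666 CPM in KO-labelled libraries, and to 966, 960 and 1119 CPM in Het-labelled ones. Of these, 2 were lower without overlap, Acta2 and Tagln, which make up most of the sum, and the other 4 overlapped. Over all genes tested, 4.83% were lower without overlap. Among the 4, Cspg4 and Rgs5 had the higher means in KO-labelled libraries. Cspg4 was at 80.4, 68.0 and 32.5 CPM there, against 47.5, 34.2 and 18.8 CPM in Het-labelled ones. Rgs5 was at 2.54, 18.6 and 2.57 CPM, against 6.48, 2.92 and 8.17 CPM, with KO replicate 1 alone above the Het-labelled libraries. The 6 endothelial markers, of which 2 stayed under 1 CPM in every library, summed to between 5.25 and 8.49 CPM in KO-labelled libraries. In Het-labelled ones the sum was between 9.78 and 15.1 CPM. Pecam1 and Kdr, 2 of the 6, were lower without overlap, and 4 overlapped. Among those 4, Tek and Emcn had the higher means in KO-labelled libraries. Tek was at 0.181, 0.904 and 1.62 CPM there, against 0.659, 0 and 0 CPM in Het-labelled ones. Emcn was at 0.361, 0.789 and 0.285 CPM, against 0.289, 0.585 and 0 CPM. Of the 8 follicle markers, 2 were lower without overlap, 1, Pth1r, was higher without overlap, and 5 overlapped. The share of all genes tested that was higher without overlap was 5.84%. Aspn, a matrix proteoglycan, was at 66.8, 44.8 and 47.1 CPM in KO-labelled libraries, against 92.7, 112 and 161 CPM in Het-labelled ones. Igfbp5, an IGF-binding protein, was at 3476, 3900 and 2351 CPM in KO-labelled libraries, against 3926, 4717 and 7031 CPM in Het-labelled ones. The part of these cell types in the Wnt11 values was not tested. An annotated pseudogene overlaps Wnt11 on the opposite strand, and the strand setting of the counting is not known here.

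Wnt10a (chromosome 1, 74791516 to 74804179, plus strand), the ligand needed for normal teeth, was at 95.4, 101 and 142 CPM in KO-labelled libraries, against 184, 139 and 105 CPM in Het-labelled ones. The groups overlapped, since KO replicate 2 was above Het replicates 1 and 2. For Wnt10a the log2 fold change was -0.34 (95% interval -0.91 to 0.24; edgeR adjusted p = 0.976), and it was -0.12 without Het replicate 0. Wnt6, a ligand gene that lies 6193 bases from Wnt10a on the same strand, was at 88.3, 60.4 and 133 CPM in KO-labelled libraries, against 152, 114 and 48.0 CPM in Het-labelled ones. In both genes KO replicate 2 was highest among the KO-labelled libraries, and Het replicate 0 was highest and Het replicate 2 lowest among the Het-labelled ones. Wnt10b (chromosome 15, 98770712 to 98778150, minus strand), the close paralog of Wnt10a and a promoter of bone formation, was at 4.45, 3.34 and 6.32 CPM in KO-labelled libraries, against 4.25, 3.26 and 2.98 CPM in Het-labelled ones. KO replicate 2 alone stood above the rest, and the log2 fold change of 0.43 (95% interval -0.75 to 1.60; edgeR adjusted p = 0.981) was 0.16 without it.

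Both Ror receptors were fitted higher in KO-labelled libraries. Ror2 (chromosome 13, 53109312 to 53286124, minus strand), the Wnt5a receptor needed for limb and skeletal outgrowth, was at 134, 94.0 and 115 CPM in KO-labelled libraries, against 86.9, 69.3 and 68.4 CPM in Het-labelled ones. The lowest KO-labelled library was above the highest Het-labelled one. Its log2 fold change was 0.61 (SE 0.21, 95% interval 0.14 to 1.08), with an edgeR adjusted p of 0.976 and a DESeq2 adjusted p of 0.369 (between 0.138 and 0.9999 over the 18 alternatives). The 6 osteoblast markers, all detected, summed to 20072, 11761 and 14885 CPM in KO-labelled libraries, and to 6582, 4437 and 11583 CPM in Het-labelled ones. The sums did not overlap, by a small margin, and most of each sum was Ibsp, while each of the 6 markers taken singly overlapped between the groups. Dmp1, a matrix protein of odontoblasts and osteocytes, was higher without overlap. It was at 536, 248 and 138 CPM in KO-labelled libraries, against 72.4, 29.0 and 84.8 CPM in Het-labelled ones. Dmp1 is 1 of 5 odontoblast and pulp markers, of which Smoc2 was lower without overlap and the other 3 overlapped. The sum of these 5 markers overlapped too. Osteoblasts are among the cells that follicle cells give rise to, and the part of mineralising cells in the Ror2 values was not tested. Ror1 (chromosome 4, 100095791 to 100444765, plus strand), its paralog, was at 33.0, 41.2 and 29.7 CPM in KO-labelled libraries, against 33.1, 24.8 and 18.9 CPM in Het-labelled ones. Het replicate 0 reached the level of the KO-labelled libraries, so the groups overlapped, and the log2 fold change was 0.44 (95% interval -0.16 to 1.04; edgeR adjusted p = 0.976).

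**Figure D2:**
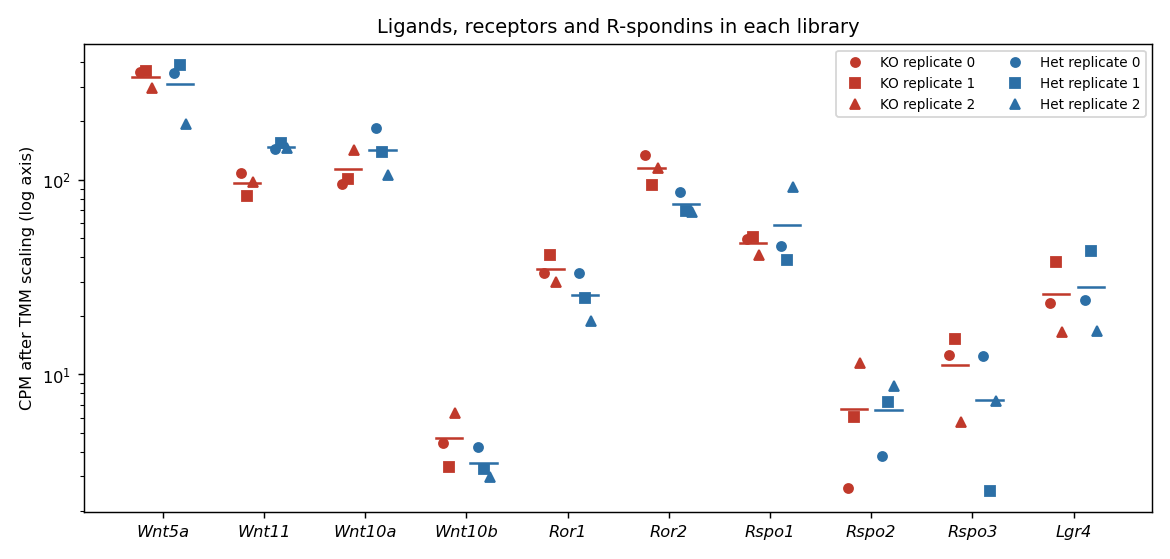
CPM after TMM scaling (log axis) of the 10 genes in each library; red symbols are libraries labelled KO, blue symbols libraries labelled Het, symbol shapes are replicate numbers and short lines are group means. All Wnt11 values labelled KO lie below all those labelled Het, all Ror2 values labelled KO lie above them, and the groups overlap for the other 8 genes.

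The groups overlapped for all 3 R-spondins. Rspo1 (chromosome 4, 124986430 to 125009099, plus strand), best known for its role in ovary development, was at 49.4, 50.9 and 41.1 CPM in KO-labelled libraries, against 45.5, 38.6 and 92.1 CPM in Het-labelled ones. Het replicate 2, the lowest library for Wnt5a, was the highest here and stood above all the others, and the log2 fold change of -0.32 (95% interval -1.05 to 0.42; edgeR adjusted p = 0.976) was 0.17 without it. Rspo2 (chromosome 15, 43020794 to 43170826, minus strand), which is needed for limb outgrowth, was at 2.61, 6.05 and 11.4 CPM in KO-labelled libraries, against 3.83, 7.18 and 8.68 CPM in Het-labelled ones. In both groups replicate 0 was lowest and replicate 2 highest, and the log2 fold change was 0.03 (95% interval -1.29 to 1.34; edgeR adjusted p = 0.9998). Rspo3 (chromosome 10, 29452416 to 29535867, minus strand), a factor of vessel development, was at 12.6, 15.2 and 5.71 CPM in KO-labelled libraries, against 12.4, 2.53 and 7.33 CPM in Het-labelled ones. Its highest library was 6.02 times its lowest, the widest range of the 10 genes. For Rspo3 the log2 fold change was 0.59 (95% interval -0.74 to 1.92; edgeR adjusted p = 0.976), and it ran between 0.18 and 1.19 as single libraries were left out. The lowest member count in any library was the 91 counts of Rspo3 in Het replicate 1.

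Lgr4 (chromosome 2, 109917647 to 110014257, plus strand), the R-spondin receptor, was at 23.3, 37.7 and 16.6 CPM in libraries labelled KO replicates 0, 1 and 2, against 24.2, 43.2 and 16.7 CPM in the Het-labelled replicates. Libraries of the same number lay close together while the numbers differed by up to 2.60 times. Without pairing, Lgr4 had a log2 fold change of -0.12 (95% interval -1.04 to 0.81; edgeR adjusted p = 0.990). With replicate number entered as a block it was -0.09 with a standard error of 0.20, against 0.41 without the block, and the edgeR adjusted p was 0.940 (between 0.884 and 0.9999 over the 18 alternatives).

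Counted over the set, 0 of 10 members passed an adjusted p of 0.05 in edgeR, against 0% of the 14632 genes tested. All 10 passed the filter on low counts. An unadjusted p under 0.05 was found for 2 of 10, Wnt11 and Ror2, against 4.29% of genes. These are also the 2 whose groups did not overlap, against 10.7% of genes, a share that comes to about 1 gene in 10. In DESeq2 0 of 10 passed, against 0.509% of genes. In KO-labelled libraries 6 members were fitted higher and 4 lower; their median log2 fold change was 0.07, against -0.01 over all genes tested. A transcript count in sorted cells in bulk cannot tell fewer cells of a type from less RNA per cell.

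**Figure D3:**
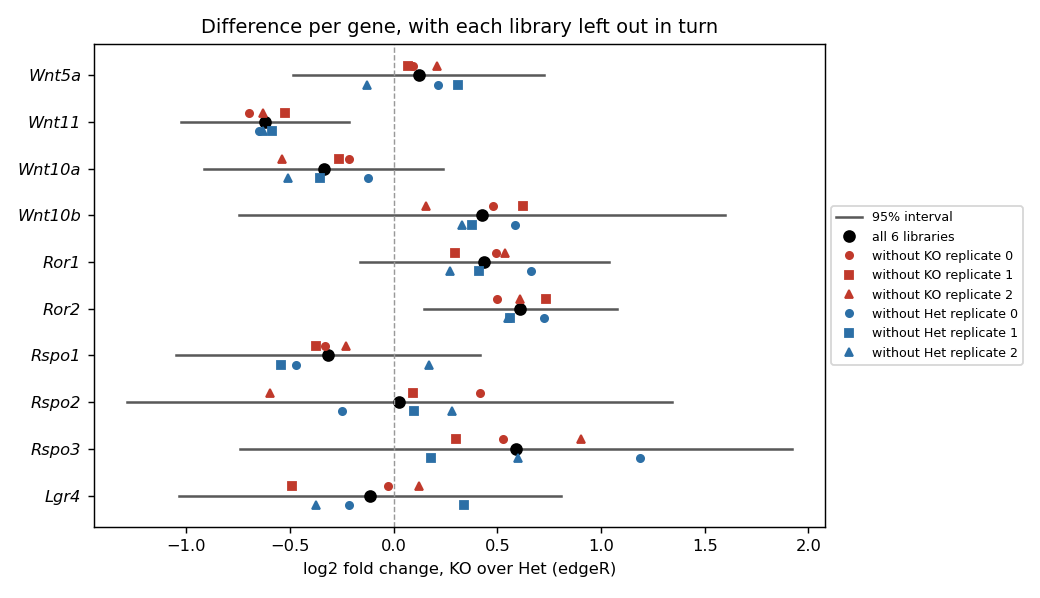
Log2 fold change of each gene, libraries labelled KO over libraries labelled Het, from edgeR; black points use all 6 libraries, lines are 95% intervals, and coloured symbols leave out 1 library, red a KO-labelled one and blue a Het-labelled one. The 7 values of Wnt11 all lie below 0 and those of Ror2 all above it, while Wnt5a, Rspo1, Rspo2 and Lgr4 cross 0.

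Within replicate numbers, the direction was the same in all 3 pairs for 4 of 10 members, against 31.2% of genes, with 2 higher in KO-labelled libraries, against 16.2% of genes, and 2 lower, against 14.9%. Wnt11 differed by -0.41, -0.90 and -0.58 on the log2 CPM scale in numbers 0, 1 and 2, and Ror2 by 0.63, 0.44 and 0.75. The pair closest to 0 was number 0 for Wnt11 and number 1 for Ror2. With replicate number as a block in edgeR, Wnt11 had a log2 fold change of -0.63 (SE 0.17, adjusted p = 0.797). In the same fit Ror2 had 0.61 (SE 0.16, adjusted p = 0.797). Wnt10b was higher in all 3 pairs, but by 0.07 and 0.03 in numbers 0 and 1, against 1.08 in number 2. Lgr4 was lower in all 3, by -0.06, -0.19 and -0.01. Rspo3 had the widest spread, with 0.02, 2.58 and -0.36.

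**Figure D4:**
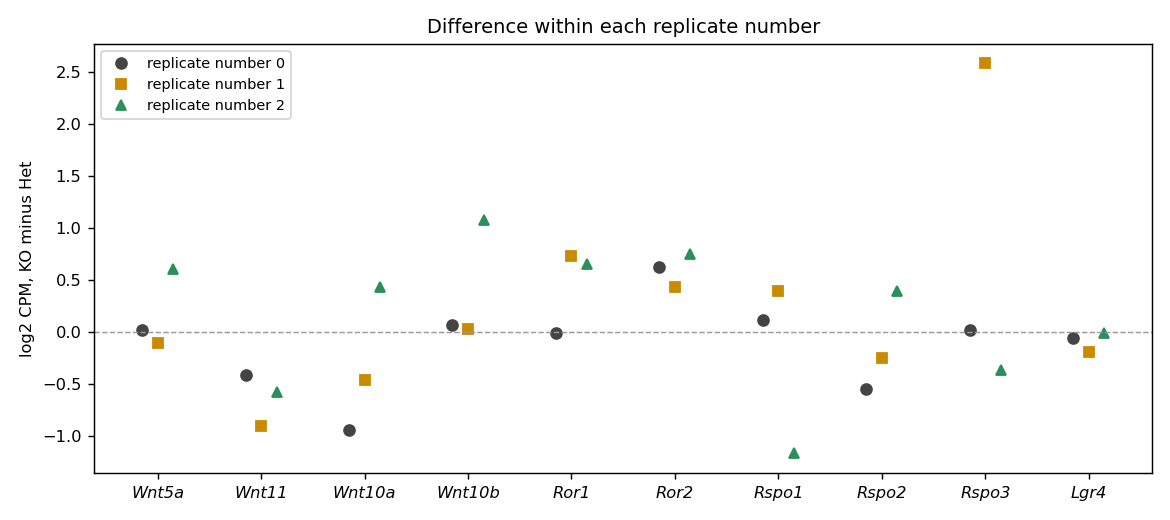
Difference of log2 CPM between the library labelled KO and the library labelled Het of the same replicate number, for each gene; symbols are the 3 replicate numbers. Wnt11 is below 0 and Ror2 above 0 in every number, and Rspo3 ranges between -0.36 and 2.58.

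The rest of the pathway was read from 5 lists of 50 genes, of which 46 were in the count table and 43 were tested. In edgeR 0 of 43 passed in either direction, 23 were fitted higher and 20 lower, and the median log2 fold change was 0.01. The groups did not overlap for 4 higher and 2 lower genes, against 5.84% and 4.83% of genes. Among the other Wnt ligands, Wnt9a, known from joint formation, was at 30.1, 25.0 and 31.3 CPM in KO-labelled libraries, against 43.6, 42.9 and 39.0 CPM in Het-labelled ones (log2 fold change -0.54, edgeR adjusted p = 0.976). Wnt5b, the paralog of Wnt5a, was at 43.5, 28.0 and 43.4 CPM in KO-labelled libraries, against 52.9, 61.4 and 50.7 CPM in Het-labelled ones (log2 fold change -0.52, edgeR adjusted p = 0.976). With Wnt11 these made 3 of 13 tested Wnt ligands with every KO-labelled library below every Het-labelled one, and Wnt2b, at under 1 CPM, was the only one the other way. This grouping was made after the values were seen.

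Wls, the carrier that Wnt proteins need for release, was at 476, 470 and 456 CPM in KO-labelled libraries, against 394, 394 and 281 CPM in Het-labelled ones (log2 fold change 0.39, edgeR adjusted p = 0.976). Porcn, the enzyme that attaches the lipid, averaged 95.3 ± 22.2 CPM in KO-labelled libraries and 96.7 ± 11.8 CPM in Het-labelled ones (SD, n = 3 each; edgeR adjusted p = 0.9996). Of the 14 Frizzled and co-receptor genes, 10 were fitted higher and 4 lower, and 0 had groups that did not overlap. The smallest p-values in this list belonged to the receptor genes Fzd5 and Fzd9 (edgeR adjusted p = 0.976 for both). Fzd5 averaged 9.52 ± 2.81 CPM in KO-labelled libraries and 3.67 ± 2.86 CPM in Het-labelled ones (SD, n = 3 each). Fzd9 averaged 23.4 ± 11.1 CPM in KO-labelled libraries and 13.1 ± 4.89 CPM in Het-labelled ones (SD, n = 3 each). Around the R-spondins, the ligase gene Znrf3 was at 12.0, 21.2 and 15.5 CPM in KO-labelled libraries, against 18.7, 18.2 and 35.6 CPM in Het-labelled ones. Its relative Rnf43 was at 3.05, 5.26 and 7.53 CPM in KO-labelled libraries, against 0.611, 5.99 and 1.49 CPM in Het-labelled ones. Both overlapped between the groups (edgeR adjusted p = 0.976 for both). Of the Dishevelled proteins, which relay both branches of the pathway, Dvl1 was at 171, 124 and 118 CPM in KO-labelled libraries, against 103, 99.4 and 51.3 CPM in Het-labelled ones (log2 fold change 0.70). Dvl2 was at 116, 105 and 108 CPM in KO-labelled libraries, against 104, 95.6 and 43.8 CPM in Het-labelled ones (log2 fold change 0.44). In both, Het replicate 2 was lowest, and the edgeR adjusted p was 0.976. Of the 13 tested polarity and Dishevelled genes, 5 were fitted higher and 8 lower, at a median log2 fold change of -0.16.

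**Figure D5:**
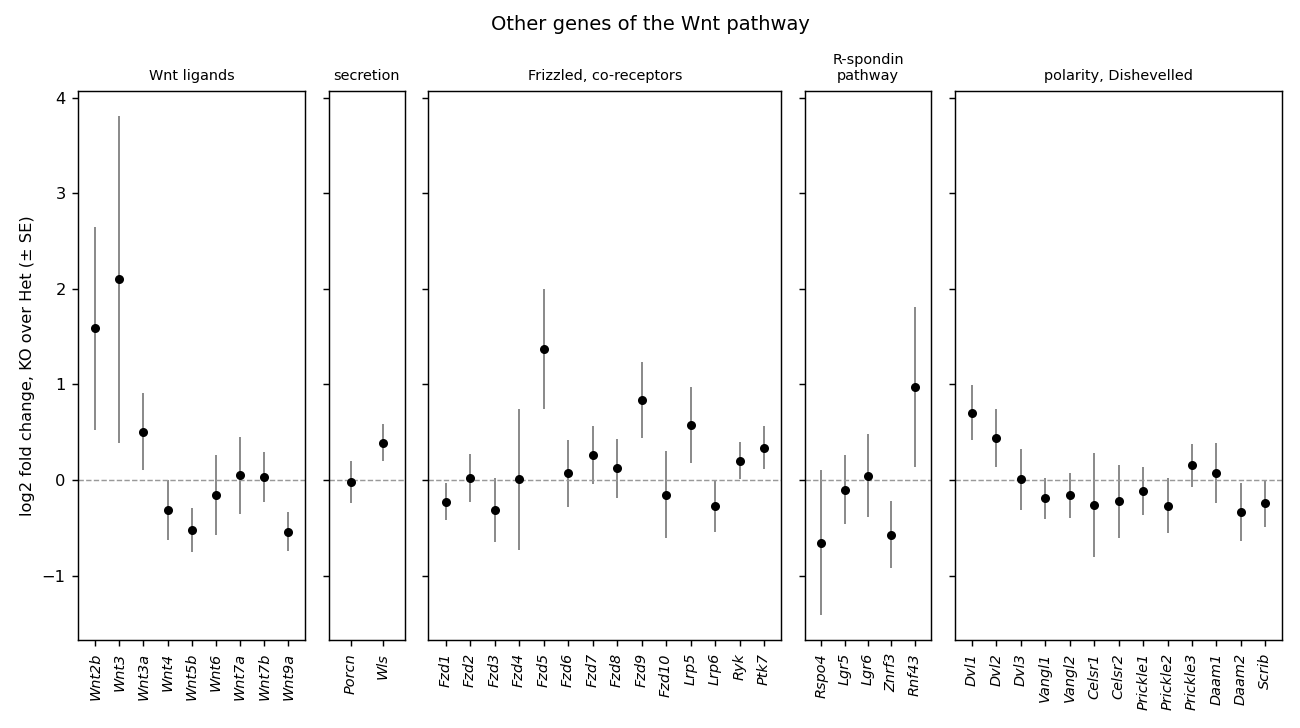
Log2 fold change with its standard error (edgeR, libraries labelled KO over libraries labelled Het) of the 43 tested genes of 5 pathway lists. None passed an adjusted p of 0.05; the largest values, of Wnt3 and Wnt2b, belong to genes under 2 CPM on average.

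Markers of the follicle and of further cell types were measured beside these genes. The 8 follicle markers, all detected, summed to between 28598 and 49862 CPM in KO-labelled libraries and to between 21137 and 37328 CPM in Het-labelled ones. Among them Pthlh, the gene of PTHrP, was at 303, 298 and 350 CPM in KO-labelled libraries, against 344, 260 and 263 CPM in Het-labelled ones. The groups overlapped in both, and Col1a1 was the largest part of each sum. Of the 8, 1 was higher without overlap (Pth1r), 2 were lower (Aspn and Igfbp5, given with Wnt11) and 5 overlapped. Over all genes tested, 5.84% were higher and 4.83% lower without overlap. Transcripts of dental epithelium, the usual source of several Wnt ligands in a tooth, were also abundant. The 12 epithelial markers, all detected, summed to 9153, 5441 and 11278 CPM in KO-labelled libraries, and to 8423, 8781 and 5740 CPM in Het-labelled ones. KO replicate 2 was highest and the groups overlapped. The 5 odontoblast and pulp markers summed to between 533 and 926 CPM in KO-labelled libraries and to between 530 and 796 CPM in Het-labelled ones. Within this overlapping sum, Dmp1 was higher without overlap, as given with Ror2, and Smoc2 was lower, at 309, 361 and 347 CPM in KO-labelled libraries, against 410, 442 and 650 CPM in Het-labelled ones. The 9 macrophage and leukocyte markers summed to between 27.2 and 149 CPM in KO-labelled libraries and to between 21.2 and 90.6 CPM in Het-labelled ones. Each of these 9 markers and each of the 12 epithelial ones overlapped between the groups when taken singly. The part of these cell types in the members' values was not tested.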

How the data were processed

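RNA of 6 libraries of sorted dental follicle cells was measured, 3 labelled KO and 3 labelled Het by their titles. Per the labels' protocols, cDNA was amplified from low-input RNA without molecular identifiers, so reads are not independent molecules. The mm10 build and the tools HTSeq, DESeq2, Bowtie2 2.2.1, TopHat2 2.0.13, Cuffdiff, Cufflinks and FastQC are listed, without roles, per the submitters' processing notes. Neither annotation nor strand setting of the counting is stated there. The authors deposited whole-number counts per gene symbol, estimated counts (rounded before use) and FPKM. Their scaled and log-transformed tables were not used here.

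Counts were tested by quasi-likelihood in edgeR 4.0.16 under R 4.3.3 (TMM, default filter on low counts, two-sided), with Benjamini-Hochberg adjustment over all 14632 genes tested. The code was tried on simulated data, with a trended and with a fixed spread between replicates. There edgeR recovered 39 and 46 of 100 genes changed 2-fold, and 93 and 100 of 100 genes changed 4-fold. DESeq2 recovered 52 and 63 of the 2-fold genes, and 92 and 100 of the 4-fold genes. False calls were counted once per run, over all 14632 genes. They were 6 and 11 in edgeR and 36 and 32 in DESeq2. Standard errors come from the F statistic. Alternatives used DESeq2 1.42.0, limma 3.58.1, other scaling, filters and tables, and left-out libraries. CPM within a number was compared as log2 of CPM.

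The members, gene lists and alternatives were chosen with earlier results of these data known. Always named were the 10 members and Pth1r. From each pathway list the 2 genes with the smallest p were named, and those with a mean of at least 10 CPM and no overlap between groups. Same-numbered libraries of the 2 groups deviated together from their group means over all genes tested (correlations 0.22, 0.12 and 0.11 for numbers 0, 1 and 2). The replicate numbers were therefore taken to pair the samples on the data, with no label that says so. The main fit was without pairing, and replicate number as a block was an alternative. Over the 10 members alone these correlations were 0.64, -0.07 and 0.20, so number 1 did not deviate together there. KO replicate 2 and Het replicate 1, of unlike number, were at 0.31 over the members.

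Gene positions came from GENCODE M21, on the same assembly as mm10. That annotation places non-coding genes or pseudogenes over Wnt5a, Wnt11, Ror1, Rspo1 and Rspo3, and the protein-coding gene Myl3 over Pth1r. Reads of these overlapping genes cannot be told apart from those of the members and Pth1r where strand was not used.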

Additional observations from a re-analysis of the deposited data

How the results depend on the processing

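Of 180 member values over 18 alternatives, 163 kept the direction and side of the threshold found with edgeR on all libraries. Wnt11 lay between -0.70 and -0.52 and Ror2 between 0.50 and 0.74 under every alternative. Wnt11 passed in DESeq2 with Het replicate 2 left out (log2 fold change -0.63), chosen after seeing the data, where 1 member was called, and it passed in no other. Directions that turned belonged to Wnt5a, Rspo1, Rspo2 and Lgr4. In limma-voom with quality weights Wnt5a was at -0.0035, Rspo1 at 0.037 and Rspo2 at -0.21. Rspo2 was at -0.062, -0.13 and -0.062 on log2(FPKM + 1), log2(FPKM + 0.1) and log2(FPKM + 1) with a minimum FPKM. Adding 1 before the log understates a fold change of low genes. On log2(FPKM + 0.1) the low gene Rspo3 was at 0.71, against 0.59 in edgeR. In DESeq2 with Het replicate 2 left out Wnt5a was at -0.13 and Rspo1 at 0.17. With libraries left out in turn, Wnt5a ran between -0.13 and 0.31, Rspo1 between -0.55 and 0.17, Rspo2 between -0.60 and 0.42 and Lgr4 between -0.49 and 0.34. The cause of these turns was not tested. With the replicate number as a block Rspo2 was at -0.13 in edgeR and -0.14 in DESeq2, 0 genes were called in edgeR, and no other member call or direction changed.

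Over all genes, 0 were called in edgeR, with 628 at an unadjusted p under 0.05. DESeq2 called 87, limma-voom 1 and limma on FPKM 1 under each of its 3 settings. DESeq2 with the replicate block called 185, and with Het replicate 2 left out 175, both chosen after seeing the data. With libraries left out in turn edgeR called between 0 and 1, the 1 without Het replicate 0. Counting error is largest for Rspo2, Rspo3 and Wnt10b, the members with the lowest mean CPM, and it does not cover amplification error.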

Other observations

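The balance between paralogous or paired ligands was also read as a ratio of counts within a library, which needs no scaling between libraries. These ratios were chosen after the values were seen and carry no test, and counts per gene are not levels per length. How often ratios of other gene pairs did not overlap was not counted. The Wnt10a count over the Wnt10b count was 21.5, 30.3 and 22.5 in the libraries labelled KO, against 43.3, 42.7 and 35.4 in those labelled Het, without overlap. The Wnt5a count over the Wnt11 count was 3.32, 4.35 and 3.01 in the libraries labelled KO, against 2.46, 2.51 and 1.33 in those labelled Het. This ratio did not overlap, and neither did Wnt11 alone. FPKM come from the same libraries and are no separate measurement. There the Wnt10a over Wnt10b ratio had no overlap, at 24.7, 36.1 and 33.0 in the libraries labelled KO, against 50.03, 51.3 and 49.5 in those labelled Het. The Wnt5a over Wnt11 ratio in FPKM overlapped, at 2.29, 3.22 and 1.20 in the libraries labelled KO, against 1.66, 1.88 and 0.563 in those labelled Het. The Ror2 count over the Ror1 count overlapped too, with means of 3.40 ± 0.979 in the libraries labelled KO and 3.01 ± 0.530 in those labelled Het (SD, n = 3 each).

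The library effect on FPKM reached far beyond these genes. Among 10569 genes with at least 1 FPKM in every library, the FPKM per CPM of both replicates 2 lay outside the range of the other 4 libraries for 85.8% of genes, below it for 5331 and above it for 3738. The same share was 29.7% for the replicates 0 and 52.9% for the replicates 1. For 9 of the 10 members the replicates 2 lay outside, below for Wnt5a, Rspo2, Rspo3 and Lgr4 and above for Wnt11, Wnt10a, Wnt10b, Ror2 and Rspo1, with Ror1 the exception.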
